A study of Mus musculus with 22 samples.

Results

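Farm dust in lungs that had not been challenged with allergen was examined in 11 of the 22 libraries of a mouse study of airborne particulate matter (PM) from a goat farm. The members were chosen by their labels: 5 libraries of the group labelled sensitization saline with a challenge of 3 µg PM, and 6 of the group labelled sensitization saline with no PM. All came from the lung (caudal lobes of the right side) of C57BL/6 mice, called old and wild type in the design text with no age stated, and polyadenylated RNA was sequenced with a stranded kit. The text on RNA extraction also speaks of sensitised mice challenged with saline, so that saline-sensitised and sensitised but saline-challenged cannot be told apart here, and both groups are called the saline arm. The design text gives 5 samples a group, and no label says that libraries came from separate mice. The p-values thus rest on the spread among libraries, part of which may be technical. The PM libraries carry another run of sample numbers in the labels than the libraries without PM, and a difference in preparation cannot be told apart from PM.

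Inhaled farm dust carries fragments of bacteria and fungi. Macrophages and airway epithelium sense these with Toll-like and C-type lectin receptors, and the transcription factor NF-kB then drives chemokines that call neutrophils and monocytes. The lung also makes acute-phase and iron-binding proteins of its own, and its dense capillary bed is kept quiescent by BMP, Notch and VEGF signals.

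The deposited counts summed to 3.36 M to 28 M per PM library and to 3.08 M to 21.7 M per library without PM. The unit CPM stands for counts brought to equal library depth with edgeR's TMM factors. Lists of 5 PM values follow the order of replicates 1, 2, 3, 5 and 6. Log2 fold changes, PM over no PM, are called log2 changes. The tissue label held: the surfactant gene Sftpc stood at 36001 ± 2605 CPM with PM (SD, n = 5) and at 32699 ± 7889 CPM without (SD, n = 6), and the club cell gene Scgb1a1 at 38092 ± 4467 CPM with PM and at 31100 ± 8779 CPM without. The libraries without PM were not alike. On the first principal component, which held 57.5% of the variance, the PM libraries stood at 10.7 to 16.2. Of the libraries without PM, replicates 3 and 4 stood near them at 15.3 and 9.0, replicates 1 and 2 at -12.8 and -12.1, and replicates 5 and 6 at -34.5 and -35. Summed mesothelial markers ran from 709 to 789.9 CPM with PM, against 1311 and 1655 CPM in replicates 3 and 4 without PM and 487 to 703 CPM in the other libraries without PM. The slope of log2 CPM per 10 points of GC content was -0.137 ± 0.133 with PM (SD, n = 5) and 0.114 ± 0.124 in libraries without PM (SD, n = 6). By a two-sided exact permutation test p was 0.00866 for GC (0.0346 after adjustment for 4 library measures). For a doubling of transcript length the slope was -0.0801 ± 0.0134 with PM and 0.0667 ± 0.16 in libraries without PM (same exact test, p = 0.0779, adjusted 0.156).

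**Figure D1:**
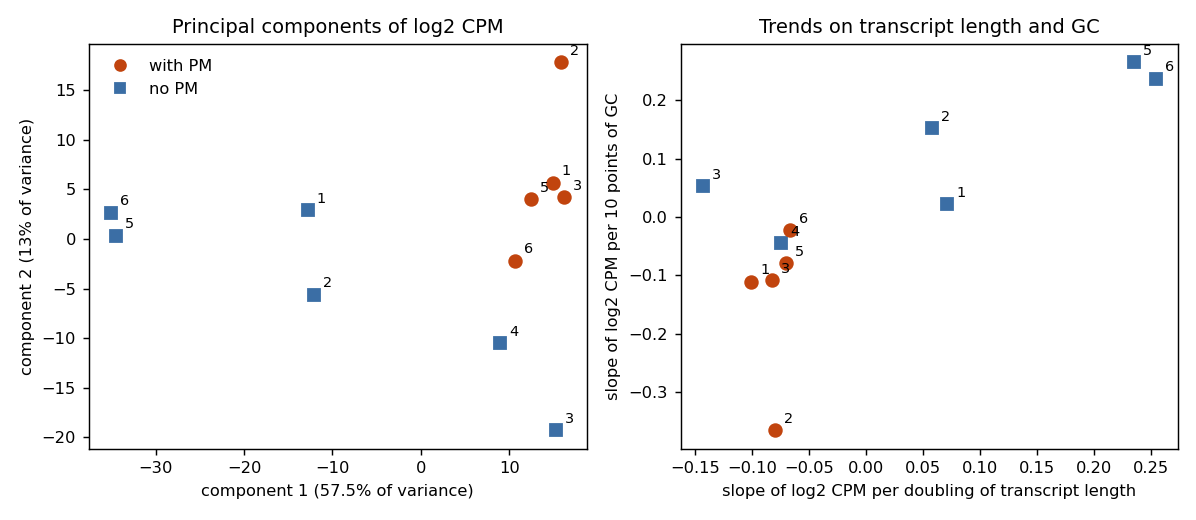
The left panel plots the first principal components of log2 CPM for the 11 libraries, and the right panel each library's slope of log2 CPM on transcript length (per doubling) and on GC content (per 10 points), with circles for PM and squares for no PM and replicate numbers beside them. Replicates 3 and 4 without PM lie with the PM libraries along component 1, at 15.3 and 9.0, and replicates 5 and 6 without PM lie at its other end.

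Of 14496 tested genes, 1862 (12.8%) differed with PM by edgeR's quasi-likelihood test at an adjusted p of 0.05. Of these, 793 (5.47% of tested) were higher with PM and 1069 (7.37%) were lower. Large changes were mostly rises: 112 genes rose by more than 1 on the log2 scale and 54 fell by more than 1, and past 2 there were 27 rises and 1 fall. Over all tested genes the median log2 change was 0.01. The CPM of the groups did not overlap in 853 genes (5.88%), and 728 of these were called (5.02%). The counts leaned on a few libraries of the group without PM. Leaving out its replicates 3 and 4 gave 5838 calls (2840 higher, 19.4%, and 2998 lower, 20.5%). Leaving out its replicates 5 and 6 gave 253 calls (149 higher, 1.04%, and 104 lower, 0.725%). Between 490 (without PM replicate 5) and 4112 (without no-PM replicate 3) were called when each library was left out in turn. A core of 203 higher genes (1.4% of tested) and 189 lower genes (1.3%) was called in the main comparison and in all 11 such repeats. An offset that removes each library's trend on length and GC gave 677 higher genes (4.7%) and 681 lower genes (4.73%). With it, 168 of the 203 and 134 of the 189 passed in the same direction. Without replicates 5 and 6, 141 of the 203 and 92 of the 189 passed. Genes called in all 11 repeats are called stable below. Such a repeat leaves out no-PM replicate 5 or 6, but never both.

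**Figure D2:**
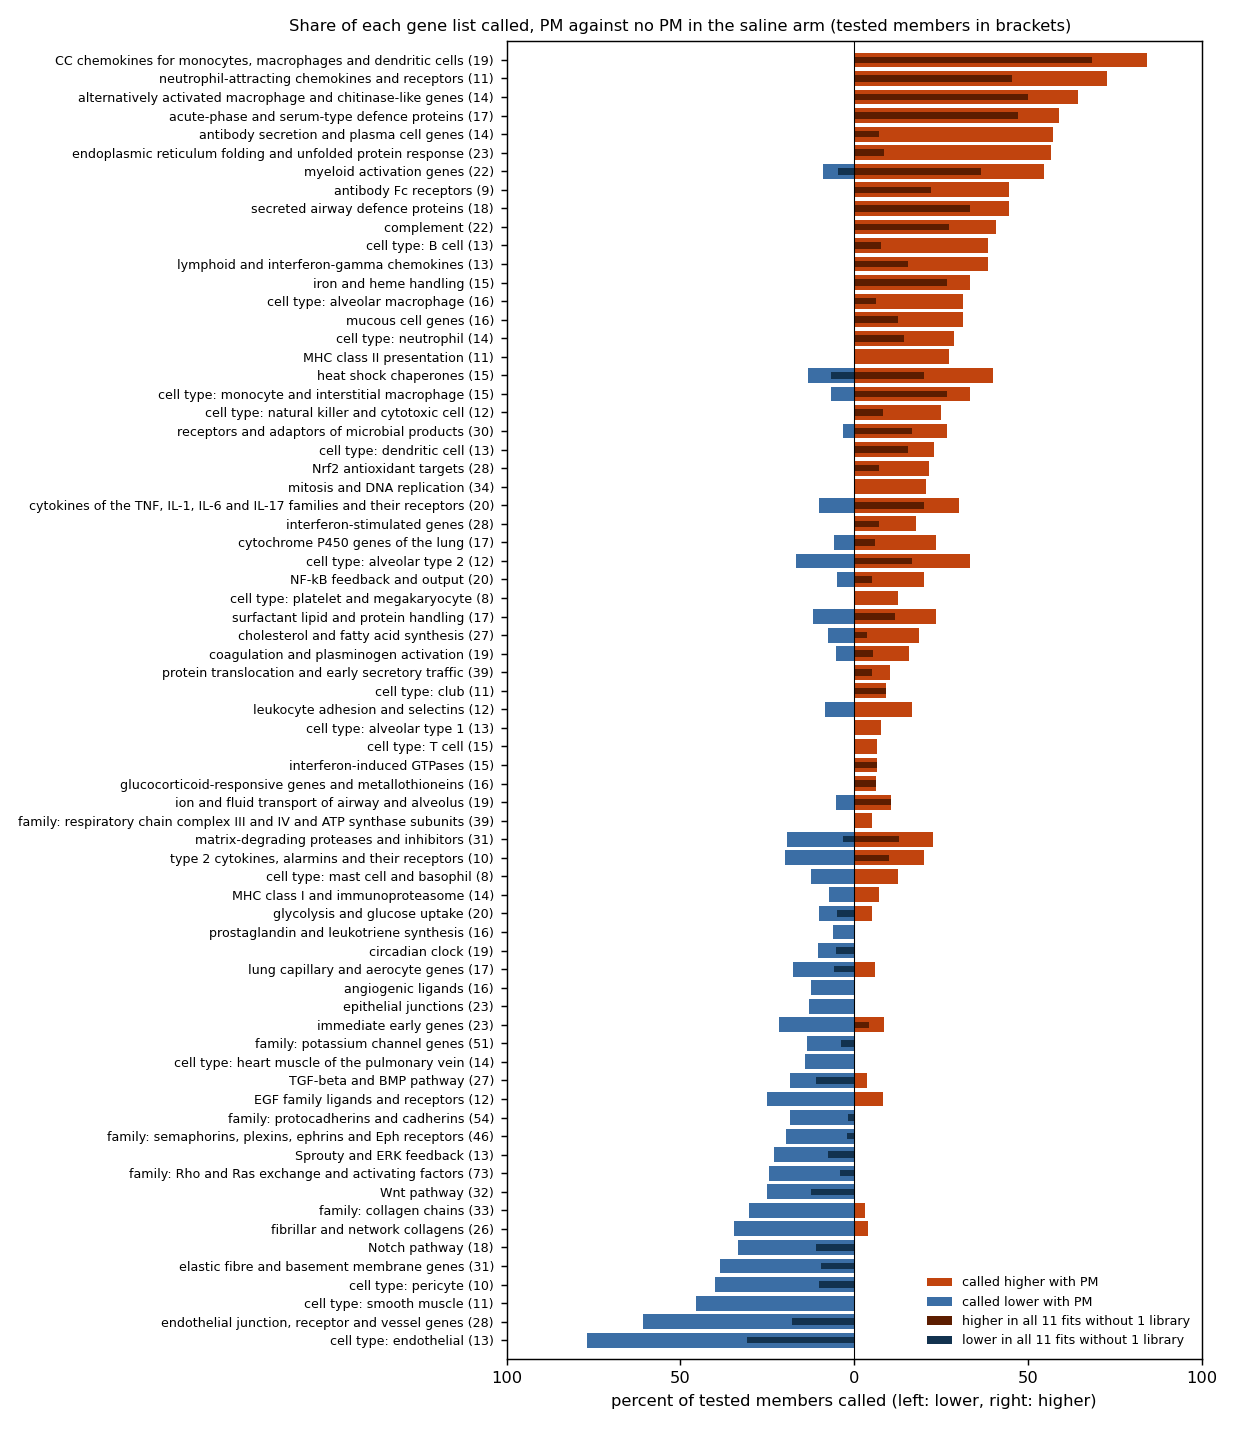
Each bar gives the percentage of a gene list's tested members (number in brackets) called higher with PM (right) or lower with PM (left), and the thin dark bar the percentage called in all 11 fits that each leave out 1 library. CC chemokines lead the rises, with 16 of 19 members higher, and endothelial markers lead the falls, with 10 of 13 members lower.

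The list counts below, each given with its number tested, stand beside 5.47% higher and 7.37% lower of all tested genes. Some genes belong to more than 1 list and are counted in each, so that the lists are not independent of each other. Many of them were smaller without no-PM replicates 5 and 6, where 1.04% of all tested genes were higher and 0.725% lower. Higher genes then numbered 4 in neutrophil-attracting chemokines, 2 in lymphoid chemokines, 3 in TNF and IL-1 family cytokines, 1 in NF-kB feedback, 5 in microbial receptors, 7 in myeloid activation, 5 in airway defence, 2 in mucous cell genes, 2 in folding genes, 2 in Nrf2 targets and 1 in sterol genes. Among leukocyte markers they numbered 2 for neutrophils and 1 each for alveolar macrophages, eosinophils and B cells. Lower genes then numbered 3 in endothelial markers, 1 in the Notch list, 1 in the Sprouty list, 3 in the TGF-beta and BMP list, 2 in elastic fibre and basement membrane genes, and 0 in collagens and in smooth muscle markers.

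Chemokines that attract neutrophils were mostly higher with PM. Several of them lie side by side on mouse chromosome 5. The 150 bases before the gene start of Cxcl1 (chr5:90891095-90891244), Cxcl2 (chr5:90903749-90903898) and Cxcl3 (chr5:90785951-90786100), all on the plus strand of GRCm38.p6 and taken from RefSeq, are shown 5′ to 3′ because these genes rose together. Capitals mark the longest run of letters that all 3 share in the 250 bases before their starts, the 11 letters GGGAATTTCCC. The same stretch of their neighbour Cxcl15 (chr5:90794384-90794533, plus strand) is shown for contrast.
Cxcl1: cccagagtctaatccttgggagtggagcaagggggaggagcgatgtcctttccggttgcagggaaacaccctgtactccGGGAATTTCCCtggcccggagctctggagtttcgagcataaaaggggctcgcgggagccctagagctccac
Cxcl2: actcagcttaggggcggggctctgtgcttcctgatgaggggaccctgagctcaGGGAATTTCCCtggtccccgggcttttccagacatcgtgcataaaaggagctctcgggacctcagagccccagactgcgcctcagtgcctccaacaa
Cxcl3: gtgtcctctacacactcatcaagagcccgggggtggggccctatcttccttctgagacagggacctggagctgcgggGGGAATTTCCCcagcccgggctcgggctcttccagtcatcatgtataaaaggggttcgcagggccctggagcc
Cxcl15: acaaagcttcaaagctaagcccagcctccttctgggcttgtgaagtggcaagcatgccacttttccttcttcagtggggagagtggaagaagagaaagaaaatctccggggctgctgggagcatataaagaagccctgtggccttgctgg
The run holds a sequence of the kind NF-kB is known to bind, and it begins 71 bases before the start of Cxcl1, 97 before that of Cxcl2 and 73 before that of Cxcl3. Searched on both strands (reverse complement GGGAAATTCCC), it stood in 14 of 32851 RefSeq windows of 250 bases, or 0.0426%. The 14 include the windows of these 3 genes, from which the run was read. Of 12 genes looked up by name 11 had a window. Cxcl5, which also rose, had none and was not searched. These letters were not in the windows of Cxcl15, Pf4 and Ppbp in the same cluster, nor in those of Saa3, Lcn2, Orm2, Irg1 and Nfkbia, which says nothing about other forms of such a site.

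Of the 11 tested neutrophil-attracting chemokines and receptors, 8 were higher with PM and 0 lower, and 5 of the 8 were stable. Cxcl3, a ligand of the neutrophil receptor CXCR2, had 23.4, 12.2, 17.7, 24.4 and 10.7 CPM with PM, against 0.183 to 0.895 CPM without (median 0.683). Every PM library lay far above every library without PM, a log2 change of 4.72 ± 0.30 (SE, n = 5 and 6, edgeR adjusted p = 2.14e-06). Cxcl2 had 7.06, 3.45, 2.1, 9.19 and 3.06 CPM with PM, against 0.493 to 1.32 CPM without (median 0.755). The groups did not overlap, and its log2 change was 2.89 ± 0.38 (edgeR adjusted p = 0.00145). Cxcl1 had 20.9, 12.9, 11.7, 19.9 and 8.85 CPM with PM, against 2.93 to 4.19 CPM without (median 3.66), a log2 change of 2.03 ± 0.21 (edgeR adjusted p = 0.000198). Cxcl5, an epithelial ligand of the same receptor, had 15.2, 10.2, 15.9, 24.2 and 6.37 CPM with PM, against 0.658 to 3.66 CPM without (median 2.33), a log2 change of 2.67 ± 0.37 (edgeR adjusted p = 0.00206). In these genes PM replicate 6 was the lowest or among the lowest PM libraries, and replicate 5 was the highest for Cxcl2, Cxcl3 and Cxcl5. Cxcl15, the chemokine that resting lung epithelium makes in bulk, moved little: it stood at 3920.3 to 4638 CPM with PM and at 2569 to 3624 CPM without, a log2 change of 0.43 ± 0.10 (edgeR adjusted p = 0.0193). Its call was lost without PM replicate 1, 2 or 5 (log2 0.43, 0.40 and 0.45) and with the length and GC offset (0.17). Pf4, a platelet chemokine, had a log2 change of 0.73 ± 0.18 (edgeR adjusted p = 0.0238). It stood at 0.32 and lost its call under the offset, and it did not pass without no-PM replicates 2, 5 or 6 (0.70, 0.69 and 0.64) or PM replicates 1, 3 or 5 (0.67, 0.71 and 0.64). Ppbp, its neighbour, did not pass (log2 change 0.14 ± 0.21, edgeR adjusted p = 0.684). Nfkbia, the inhibitor of NF-kB, did not pass either (0.15 ± 0.09, edgeR adjusted p = 0.231), but passed in limma voom with sample quality weights (0.22, adjusted p = 0.0275). Csf2, the growth factor GM-CSF, stood at 8.6 to 12.6 CPM with PM and at 3.57 to 7.5 CPM without (log2 change 0.86 ± 0.18, edgeR adjusted p = 0.0155), and its call was lost under the offset (0.36).

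**Figure D3:**
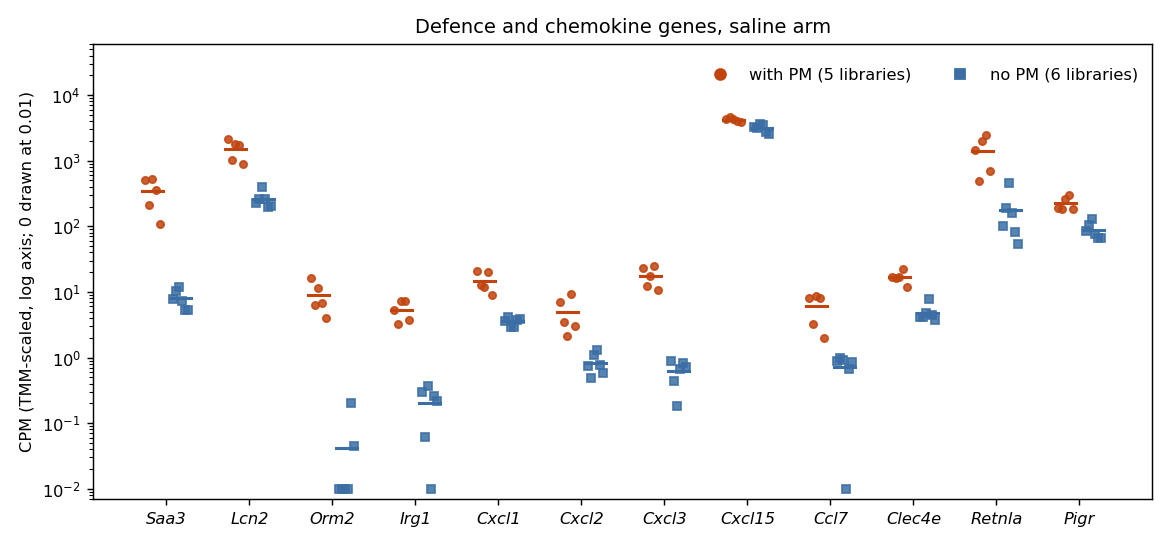
CPM on a log axis for 12 genes in the 11 libraries of the saline arm, with PM as circles on the left and no PM as squares on the right of each pair, horizontal lines at the group means and values of 0 drawn at 0.01. The groups stand apart for each of the 12 genes, narrowly for Cxcl15 (at least 3920.3 CPM with PM, at most 3624 CPM without) and Retnla (at least 493 and at most 459 CPM), while Orm2 was at 0 in most libraries without PM.

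Acute-phase proteins, which liver and lung epithelium secrete under inflammation, included some of the largest rises. Of 17 tested members 10 were higher and 0 lower, 8 of them stable, 12 with the offset and 8 without no-PM replicates 5 and 6, and the list's median log2 change was 0.66. Saa3, a serum amyloid A made in tissues outside the liver, had 501, 214, 532, 361 and 109 CPM with PM, against 5.26 to 11.9 CPM without (median 7.5). Its lowest PM library stood several times above its highest library without PM, and the log2 change was 5.47 ± 0.39 (SE, edgeR adjusted p = 6.87e-06). Orm2, an orosomucoid that carries lipophilic compounds in serum, had 16.3, 6.41, 11.4, 6.7 and 3.97 CPM with PM, against 0 to 0.204 CPM without (median 0), from 457 counts in all with PM and 5 without. Its log2 change of 6.90 ± 0.59 (edgeR adjusted p = 3.07e-05) depends on the prior count, since 4 of the 6 libraries without PM had 0 counts. Orm1 had 24.6, 10.2, 18, 16.7 and 5.21 CPM with PM, against 0.373 to 1.6 CPM without (median 0.947; log2 change 3.89 ± 0.40, edgeR adjusted p = 0.000168). Saa1 stood at 1.16 to 6.79 CPM with PM and at 0 to 0.915 CPM without (log2 change 3.52 ± 0.58). Saa1 has a close copy in Saa2, and Orm1 and Orm2 resemble each other and a further gene, so that the counts of single copies are uncertain. Serpina3n, a protease inhibitor, had 112, 58.7, 116, 119.8 and 50.9 CPM with PM, against 18.4 to 36.2 CPM without (log2 change 1.62 ± 0.23, edgeR adjusted p = 0.00206). Hemopexin (Hpx), which binds free heme, stood at 3.06 to 11.1 CPM with PM and at 1.42 to 1.94 CPM without (log2 change 1.78 ± 0.30). Complement factor B (Cfb), of the alternative pathway, had 208, 156, 241, 244 and 144 CPM with PM, against 33.7 to 112 CPM without (log2 change 1.68 ± 0.31, edgeR adjusted p = 0.00779). GENCODE M21 on GRCm38 places Saa3 on the minus strand of chromosome 7 from 46711998 to 46715700, and Orm1 and Orm2 on chromosome 4 from 63344560 to 63348163 and from 63362449 to 63365878, all as protein-coding genes.

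Genes that withhold iron from microbes or handle heme rose beside them, 5 of 15 tested with 0 lower, 4 of the 5 stable. Lcn2, lipocalin 2, which captures bacterial siderophores, had 2175, 1021, 1806, 1752 and 895 CPM with PM, against 198 to 392 CPM without (median 243). The groups did not overlap, and its log2 change was 2.58 ± 0.24 (SE, edgeR adjusted p = 6.49e-05). Steap4, a metalloreductase, stood at 51 to 95.8 CPM with PM and at 36.2 to 47.3 CPM without (log2 change 0.91 ± 0.13). Ceruloplasmin (Cp), a copper ferroxidase, stood at 245 to 404 CPM with PM and at 162 to 189 CPM without (0.85 ± 0.10). Heme oxygenase 1 (Hmox1) stood at 69.3 to 104 CPM with PM and at 41.4 to 69.2 CPM without (0.74 ± 0.14). These 3 genes passed with edgeR adjusted p of 0.00238, 0.000971 and 0.0108.

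CC chemokines, which draw monocytes, dendritic cells and eosinophils, were the list with the highest share of rises in the plot of list shares: 16 of 19 tested were higher, 13 of them stable, 15 with the offset and 13 without no-PM replicates 5 and 6. The list's median log2 change was 1.22. Ccl7, a ligand of the monocyte receptor CCR2, had 8.01, 3.26, 8.71, 8.14 and 1.98 CPM with PM, against 0 to 0.985 CPM without (median 0.867), a log2 change of 2.85 ± 0.40 (SE, edgeR adjusted p = 0.00212). Ccl3, a macrophage inflammatory chemokine, had 9.91, 4.84, 9.61, 12.2 and 5.37 CPM with PM, against 1.66 to 3.62 CPM without (median 1.89), a log2 change of 2.10 ± 0.26 (edgeR adjusted p = 0.001). Ccl12, another ligand of CCR2 in mice, stood at 3.89 to 8.15 CPM with PM and at 1.41 to 2.4 CPM without (log2 change 1.78 ± 0.23). Ccl9, a myeloid chemokine of mice, had 153, 98.1, 157, 142 and 95.4 CPM with PM, against 31.1 to 67.7 CPM without (median 38.3; 1.61 ± 0.20, edgeR adjusted p = 0.000977). In Ccl3, Ccl7 and Ccl12 PM replicates 2 and 6 were the lowest of the 5, yet above every library without PM. Ccl17 and Ccl22, the ligands of CCR4 that dendritic cells and macrophages make, had log2 changes of 1.67 ± 0.25 and 1.22 ± 0.23, and neither overlapped between groups. Ccl8, a CCR8 ligand in mice, stood at 11.4 to 42.3 CPM with PM and at 4.11 to 12.4 CPM without, where PM replicate 2 overlapped the group without PM (1.98 ± 0.33, edgeR adjusted p = 0.00494). Ccl11, eotaxin, had 11, 5.33, 10.5, 19 and 6.45 CPM with PM, against 2.63 to 4.39 CPM without (1.53 ± 0.28, edgeR adjusted p = 0.00843). The receptor Ccr2 stood at 80 to 112 CPM with PM and at 49.9 to 75.7 CPM without (0.73 ± 0.11).

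Of 13 tested lymphoid and interferon-gamma chemokines 5 were higher and 0 lower, with 2 stable. Cxcl13, which guides B cells, had 24.2, 26.8, 56.7, 32.2 and 19.4 CPM with PM, against 5.74 to 11.3 CPM without (median 7.68). The groups did not overlap, and its log2 change was 1.99 ± 0.25 (SE, edgeR adjusted p = 0.000979). Cxcl9, a CXCR3 ligand that interferon gamma induces, stood at 1.68 to 4 CPM with PM and at 0.549 to 1.32 CPM without (log2 change 1.53 ± 0.27, edgeR adjusted p = 0.00737). Of 28 interferon-stimulated genes 5 were higher and 0 lower at a median log2 change of 0.09, and 1 of 15 interferon-induced GTPases was higher, beside 5.47% of all tested genes. Of the interferon-stimulated genes 2 were higher with the offset and 1 without no-PM replicates 5 and 6. Rsad2, viperin, an antiviral enzyme, stood at 6.28 to 8.68 CPM with PM and at 2.74 to 4.8 CPM without (log2 change 0.91 ± 0.14, edgeR adjusted p = 0.00403).

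Among cytokines and receptors of the TNF, IL-1, IL-6 and IL-17 families, 6 of 20 tested were higher and 2 lower, and 4 of the higher ones were stable. Tnf had 6.93, 3.75, 4.8, 8.86 and 4.46 CPM with PM, against 1.63 to 3.62 CPM without (median 2.02), a log2 change of 1.55 ± 0.25 (SE, edgeR adjusted p = 0.00403). Il1b, the inflammasome cytokine, stood at 57.6 to 100.3 CPM with PM and at 34.4 to 58.9 CPM without, with overlapping groups (log2 change 0.76 ± 0.16, edgeR adjusted p = 0.0157). The brakes on IL-1 were also higher. Il1rn, the receptor antagonist, had 55.4, 33.6, 49.8, 62.3 and 41 CPM with PM, against 13.2 to 32.2 CPM without (1.39 ± 0.22, edgeR adjusted p = 0.00398), and Il1r2, the decoy receptor, stood at 2.32 to 5.12 CPM with PM and at 0.677 to 1.83 CPM without (1.8 ± 0.28). Il6 summed to 57 counts with PM and 26 without, Il17a to 10 and 2, and Csf3, the growth factor of neutrophils, to 7 and 1, all under the filter on low counts and not tested. Of 20 genes of NF-kB feedback and output 4 were higher and 1 lower, with 1 stable, which was Tnip3, an inhibitor of NF-kB signalling (3.89 to 8.76 CPM with PM, 2.17 to 3.29 CPM without, log2 change 1.29 ± 0.20). Tnfrsf9, the costimulatory receptor 4-1BB, had 14.8, 7.8, 9.01, 12.9 and 4.38 CPM with PM, against 1.46 to 2.38 CPM without (2.35 ± 0.28, edgeR adjusted p = 0.000668). Ch25h, which makes an antiviral oxysterol, had 23.5, 13, 21.3, 33.3 and 16.1 CPM with PM, against 3.66 to 6.06 CPM without (2.01 ± 0.21, edgeR adjusted p = 0.000225).

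Receptors of microbial products were higher in 8 of 30 tested cases and lower in 1, and 5 of the rises were stable. The largest belonged to C-type lectins. Clec4e, Mincle, which binds fungal and mycobacterial glycolipids, had 16.7, 16.4, 17.1, 22.5 and 11.7 CPM with PM, against 3.76 to 7.9 CPM without (median 4.28). The groups did not overlap, with a log2 change of 1.92 ± 0.18 (SE, edgeR adjusted p = 9.99e-05). Clec4d, its partner receptor, stood at 24 to 33.1 CPM with PM and at 7.85 to 15.2 CPM without (1.47 ± 0.16, edgeR adjusted p = 0.000339). Cd14, the coreceptor for endotoxin, stood at 63.6 to 82.2 CPM with PM and at 29.4 to 60.9 CPM without (0.92 ± 0.15). Tlr13, a mouse sensor of bacterial ribosomal RNA, had a log2 change of 0.81 ± 0.14 and Tlr1, the partner of TLR2 for lipopeptides, one of 0.72 ± 0.11 (edgeR adjusted p = 0.00501 and 0.00398), with no overlap between groups in either.

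Myeloid activation genes were higher in 12 of 22 tested cases and lower in 2, with 8 stable rises. Irg1, which makes the antimicrobial metabolite itaconate in macrophages, had 5.3, 3.26, 7.2, 7.35 and 3.72 CPM with PM, against 0 to 0.366 CPM without (median 0.238). Its log2 change was 4.59 ± 0.36 (SE, edgeR adjusted p = 1.37e-05). Clec5a, a myeloid lectin receptor, stood at 7.61 to 14.4 CPM with PM and at 3.16 to 6.4 CPM without (1.35 ± 0.19), and Slc7a11, the cystine importer, at 5.63 to 12.4 CPM with PM and at 2.29 to 3.62 CPM without (1.58 ± 0.21). Gpr84, a receptor for medium-chain fatty acids, had a log2 change of 2.06 ± 0.37 from 0.987 to 2.13 CPM with PM and 0.0746 to 0.988 CPM without, so that the groups just overlapped. Cd86, a costimulatory ligand, rose by 0.68 ± 0.12 on the log2 scale (edgeR adjusted p = 0.008). Nos2, the inducible nitric oxide synthase, fell: it had 4.21, 3.45, 3.3, 4.65 and 3.64 CPM with PM, against 4.94 to 13 CPM without (median 7.79), a log2 change of -1.21 ± 0.23 (edgeR adjusted p = 0.0103).

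Genes of alternatively activated macrophages and chitinase-like proteins, usually linked to type 2 immunity, were higher in 9 of 14 tested cases and lower in 0, with 7 stable and a median log2 change of 1.05. Of these rises Arg1, Chil1, Ccl8, Ccl17 and Ccl24 are also counted in other lists. Retnla, a resistin-like molecule, had 1444, 493, 2025, 2451 and 703 CPM with PM, against 53.4 to 459 CPM without (median 131). The lowest PM library stood just above the highest library without PM, replicate 3, and the log2 change was 3.04 ± 0.53 (SE, edgeR adjusted p = 0.00587). Chil1, a chitinase-like protein of epithelium and macrophages, had 4046, 2715, 3484, 3980.3 and 2567 CPM with PM, against 1234 to 2087 CPM without (1.10 ± 0.15, edgeR adjusted p = 0.00206). Cd209e, a lectin of the DC-SIGN family, stood at 1.18 to 4.11 CPM with PM and at 0.329 to 0.616 CPM without (2.49 ± 0.38). Arg1, arginase 1, which shares its substrate with Nos2, stood at 5.92 to 16 CPM with PM and at 3.62 to 5.79 CPM without (1.17 ± 0.21, edgeR adjusted p = 0.00737), and lost its call when all 4 groups of the study entered 1 fit (1.18, adjusted p = 0.0742). Egr2, a transcription factor of these cells, rose by 0.85 ± 0.17. Chil3 (Ym1) stood at 639.8 to 1166 CPM with PM and at 225 to 1081 CPM without (median 351), and did not pass (0.98 ± 0.35, edgeR adjusted p = 0.0715). It passed without no-PM replicate 3, at 1.45. Matrix-degrading proteases and their inhibitors went both ways: of 31 tested, 7 were higher and 6 lower, at a median log2 change of 0.03. Of these, 4 rises and 1 fall were stable. Among the rises, Mmp12, the macrophage elastase, had 82.7, 52.1, 84.4, 139 and 73.6 CPM with PM, against 17.7 to 40.1 CPM without (1.74 ± 0.24, edgeR adjusted p = 0.00206). Mmp19 and the collagen-cleaving Ctsk rose by 0.91 ± 0.14 and 1.18 ± 0.21, and Timp1, an inhibitor of metalloproteases, by 2.08 ± 0.33, with PM replicate 6 at 18.6 CPM under the highest library without PM at 19.2 CPM.

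Markers of leukocytes were counted by cell type. In bulk lung, a change in the number of cells of a type and a change in RNA per cell cannot be told apart. Neutrophil markers were higher in 4 of 14 tested cases with 2 stable, and their summed level ran from 776 to 923 CPM with PM and from 583 to 845 CPM without. S100a8, of calprotectin, had 104, 131, 83.5, 120 and 113 CPM with PM, against 58.9 to 139 CPM without (median 75.5), and did not pass (log2 change 0.38 ± 0.20, edgeR adjusted p = 0.196). It passed without no-PM replicate 4 (0.55) and was -0.15 with the offset. Alveolar macrophage markers were higher in 5 of 16 with 1 stable, at summed levels of 2421 to 3005 CPM with PM and 1349 to 3168 CPM without, where no-PM replicate 3 held 3168 CPM. Siglecf, of alveolar macrophages and eosinophils, stood at 43.5 to 54.4 CPM with PM and at 22.5 to 67.3 CPM without (0.34 ± 0.22, edgeR adjusted p = 0.305), and passed without no-PM replicate 3 (0.58). Markers of monocytes and interstitial macrophages were higher in 5 of 15 and lower in 1, with 4 stable rises that include the complement genes C1qa (0.51 ± 0.11), C1qb (0.74 ± 0.12) and C1qc (0.66 ± 0.13), and their summed level ran from 1360.2 to 1579.5 CPM with PM and from 1267 to 1566 CPM without. Eosinophil markers were higher in 5 of 7 with 1 stable (87.3 to 133 CPM summed with PM, 50.9 to 126 CPM without). Rnase2a, an eosinophil-type ribonuclease, had 8.96, 2.17, 21.9, 22.7 and 5.71 CPM with PM, against 0.796 to 2.3 CPM without (3.21 ± 0.54, edgeR adjusted p = 0.00501), so that PM replicate 2 lay within the group without PM. T cell markers were higher in 1 of 15 and lower in 0, near the 5.47% of all tested genes that were higher. B cell markers were higher in 5 of 13 with 1 stable, Ms4a1 (CD20), which stood at 46.8 to 54.2 CPM with PM and at 26.6 to 35.9 CPM without (0.64 ± 0.08, edgeR adjusted p = 0.00145). The part of these cell types in the rises of chemokine and defence genes was not tested.

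Of 18 tested defence proteins secreted in the airways 8 rose and 0 fell, 6 stable, and every one of the 18 had a positive log2 change. Pigr, which carries IgA across epithelium, had 189, 183, 260, 303 and 182 CPM with PM, against 65.5 to 127 CPM without (median 80.9), a log2 change of 1.35 ± 0.18 (SE, edgeR adjusted p = 0.00168). Jchain, the joining chain that makes IgA a ligand of this receptor, had 442, 465, 642, 896 and 534 CPM with PM, against 126 to 358 CPM without (1.40 ± 0.27, edgeR adjusted p = 0.0108), and did not pass in the fit of all 4 groups (1.40, adjusted p = 0.0887). Reg3g, an antibacterial lectin, had 84.5, 129.9, 257, 215 and 116 CPM with PM, against 17.6 to 98.4 CPM without, overlapping at no-PM replicate 3 (2.16 ± 0.44, edgeR adjusted p = 0.0141). Wfdc17, a small whey acidic protein of macrophages, stood at 34.4 to 61.2 CPM with PM and at 7.29 to 21.6 CPM without (1.98 ± 0.24, edgeR adjusted p = 0.000821). Sftpd, the collectin that opsonises microbes, stood at 2172 to 2814 CPM with PM and at 1178 to 1964 CPM without (0.73 ± 0.13), whereas Sftpb, needed for surfactant films, stood at 3053 to 4238 CPM with PM and at 4187 to 5776 CPM without (-0.46 ± 0.11, edgeR adjusted p = 0.0189; not passed without PM replicate 5, at -0.46). Mucous cell genes were higher in 5 of 16, 2 stable. Muc5ac, the inducible mucin, had 2.31, 1.97, 9.91, 10.7 and 4.05 CPM with PM, against 0.522 to 2.56 CPM without (2.21 ± 0.47, edgeR adjusted p = 0.0161). PM replicates 1 and 2 lay within the group without PM, and without PM replicate 5 it stood at 1.67 and did not pass. Agr2, which folds mucins, stood at 8.09 to 28.8 CPM with PM and at 2.39 to 11 CPM without, overlapping at no-PM replicate 3 (2.17 ± 0.40), and Slc26a4, the anion exchanger pendrin, at 16 to 71.5 CPM with PM and at 8.43 to 12.3 CPM without (1.78 ± 0.33). Clca1, a goblet cell product, ranged from 13.3 to 405 CPM with PM and from 3.14 to 131 CPM without and did not pass (2.27 ± 0.89, edgeR adjusted p = 0.0987), but passed without no-PM replicate 3 (2.99).

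Folding genes of the endoplasmic reticulum were higher in 13 of 23 tested cases and lower in 0, all by small amounts (median log2 change of the list 0.32), and 2 were stable. These were Hspa5, the chaperone BiP, at 670.2 to 831 CPM with PM and 502 to 562 CPM without (0.45 ± 0.08, edgeR adjusted p = 0.00587), and Edem1, which sorts misfolded proteins, at 94.8 to 110.5 CPM with PM and 74.5 to 90.9 CPM without (0.36 ± 0.07, edgeR adjusted p = 0.0122). Edem1 lost its call in the fit of all 4 groups (0.35, adjusted p = 0.282). Hspa8, the constitutive cytosolic chaperone, rose by 0.50 ± 0.09, and Il33, an epithelial alarmin, by 0.55 ± 0.09, from 144 to 198 CPM with PM against 100.1 to 133 CPM without (edgeR adjusted p = 0.00549 and 0.00494). Hspa8 was 1 of 6 rises and 2 falls among 15 heat shock chaperones. Il33 was 1 of 2 rises and 2 falls among 10 tested type 2 cytokines, alarmins and their receptors, a list with a median log2 change of 0.06. Cyp1a1, which the aryl hydrocarbon receptor induces, was not higher: it stood at 7.5 to 13.1 CPM with PM and at 8.78 to 19.4 CPM without (-0.47 ± 0.20, edgeR adjusted p = 0.115; passed as lower without no-PM replicate 3, at -0.54). Among 28 antioxidant targets of Nrf2, 6 were higher and 0 lower, with 2 stable, Hmox1 and Slc7a11. Cyp51, of cholesterol synthesis, rose by 0.45 ± 0.07 (edgeR adjusted p = 0.00403), 1 of 5 rises and 2 falls among 27 sterol and fatty acid genes. Of all tested genes 5.47% were higher and 7.37% lower, so that the falls in this list were near the overall share.

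Falls were frequent in 2 lists of vessel genes, endothelial markers (10 of 13 lower, 8 with the offset) and endothelial junction, receptor and vessel genes. The 2 lists share members such as Cdh5, and Eng is counted again in the TGF-beta and BMP list, so that these counts overlap. Other vessel lists held fewer, with 3 of 17 lung capillary and aerocyte genes lower and 1 higher, 2 of 16 angiogenic ligands lower, and 1 of 6 lymphatic markers lower and 1 higher. Over all tested genes 7.37% were lower and 5.47% higher. Of 28 tested endothelial junction, receptor and vessel genes, 17 were lower and 0 higher, 5 of them stable, at a median log2 change of -0.49. In this list 12 were lower with the offset, 26 without no-PM replicates 3 and 4 and 4 without no-PM replicates 5 and 6. Summed endothelial markers ran from 3789 to 4190.2 CPM with PM and from 4452 to 6478 CPM without, with no-PM replicates 5 and 6 the highest at 6478 and 6420.4 CPM and replicates 3 and 4 the lowest at 4452 and 4689 CPM. The order of the no-PM libraries in these sums was that of their length slopes for the lowest and highest pairs, and the part of that trend in the falls was not tested beyond the offset. Plvap, which forms the diaphragms of fenestrae, had 299, 227, 255, 335 and 329 CPM with PM, against 339.7 to 779 CPM without (median 546). The groups did not overlap, by a narrow margin, and the log2 change was -0.97 ± 0.20 (SE, edgeR adjusted p = 0.0142). Kdr, VEGF receptor 2, stood at 235 to 256 CPM with PM and at 271 to 417 CPM without (-0.54 ± 0.10, edgeR adjusted p = 0.0111). Erg, a transcription factor of endothelial identity, stood at 37.4 to 50 CPM with PM and at 51.5 to 65.3 CPM without (-0.51 ± 0.09, edgeR adjusted p = 0.00831). Tie1, an angiopoietin coreceptor whose groups overlapped at PM replicate 6, had a log2 change of -0.63 ± 0.14, and Cdh5, VE-cadherin, one of -0.64 ± 0.15 (edgeR adjusted p = 0.0181 and 0.0229). Cdh5 did not pass without PM replicates 1, 2, 3 or 5 (-0.65, -0.62, -0.62 and -0.64), and neither Tie1 nor Cdh5 passed without no-PM replicates 5 and 6 (-0.45 and -0.40). Prx, periaxin, a scaffold protein found in lung endothelium of mice, stood at 111 to 128 CPM with PM and at 139 to 247 CPM without (-0.72 ± 0.14). Bcl6b, an endothelial repressor, Amotl2, a junction protein that binds YAP, and Ntn4, a laminin-like protein of vessel basement membranes, fell by 0.56 ± 0.09, 0.79 ± 0.12 and 0.59 ± 0.09, with edgeR adjusted p of 0.00446, 0.00381 and 0.00398 and no overlap between groups.

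**Figure D4:**
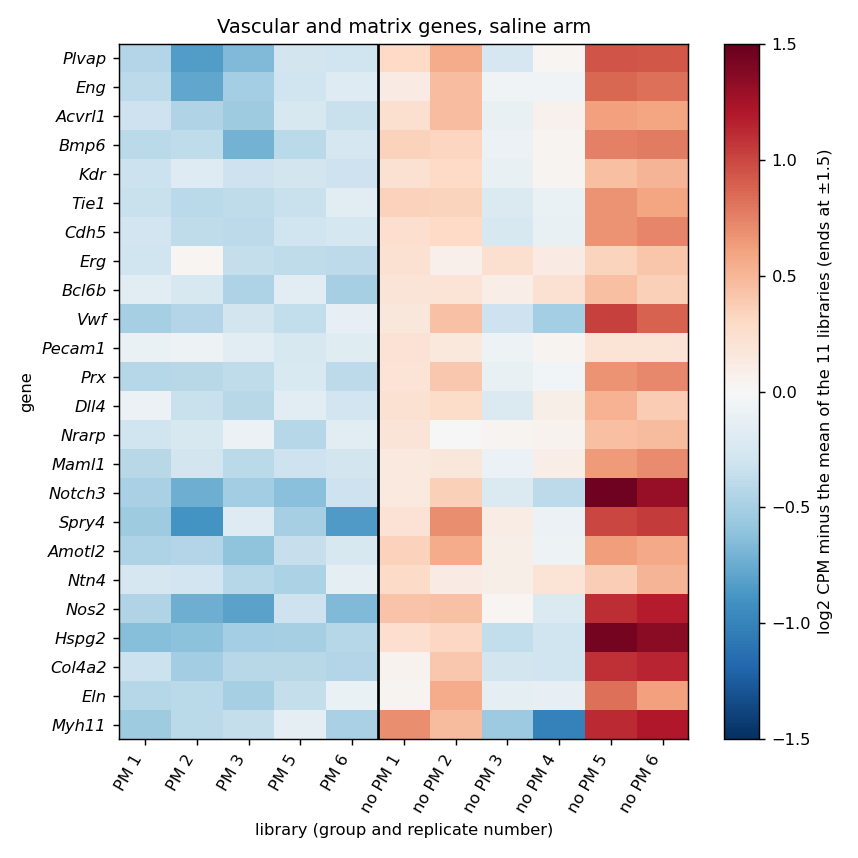
Heat map of log2 CPM minus the mean of the 11 libraries for 24 genes, mostly vascular and matrix genes, with the 5 PM libraries left of the line and the 6 libraries without PM right of it. Nos2, of the myeloid activation list, is among them. PM libraries are low in most rows, no-PM replicates 5 and 6 are highest, and no-PM replicates 3 and 4 lie between them or near the PM libraries.

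Of 27 tested genes of the TGF-beta and BMP pathway 5 were lower and 1 higher, and the 3 stable falls were Acvrl1, Eng and Bmp6. Acvrl1 and Eng belong to a receptor complex of endothelium whose loss underlies hereditary telangiectasia. Acvrl1, the receptor ALK1, had 478, 432, 409, 501 and 468 CPM with PM, against 549 to 907 CPM without (median 756), a log2 change of -0.71 ± 0.13 (SE, edgeR adjusted p = 0.00713). Endoglin (Eng), its coreceptor, had 329, 253, 305, 351 and 380.2 CPM with PM, against 417 to 785 CPM without (-0.84 ± 0.18, edgeR adjusted p = 0.016). Bmp6, a ligand of the family, had 62.7, 64, 50.7, 62.7 and 69.6 CPM with PM, against 77.9 to 143 CPM without (-0.82 ± 0.15, edgeR adjusted p = 0.00779). None of the 3 overlapped between groups, and each passed in all 11 repeats, with the offset and without no-PM replicates 5 and 6 (edgeR adjusted p = 0.0185, 0.0386 and 0.0141 there). In this list 21 genes did not pass.

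Of 18 Notch genes 6 were lower and 0 higher, 2 of them stable. These were the endothelial ligand Dll4 (81.3 to 102 CPM with PM, 93.7 to 156 CPM without, overlapping, log2 change -0.49 ± 0.11, edgeR adjusted p = 0.0196) and the coactivator Maml1 (21.7 to 23.9 CPM with PM, 27.1 to 47.3 CPM without, -0.66 ± 0.14, edgeR adjusted p = 0.0144). Notch3, the receptor of mural cells, stood at 15.1 to 20.2 CPM with PM and at 19.1 to 69 CPM without, overlapping (-1.21 ± 0.30, edgeR adjusted p = 0.0245). It lost its call without no-PM replicate 6 (-1.03) or PM replicates 1, 2, 3 or 5 (-1.21, -1.16, -1.20 and -1.17). Without no-PM replicates 5 and 6 together, Notch3 stood at -0.58 and Dll4 at -0.37, and neither passed. Spry4, which dampens receptor tyrosine kinase signals, had 15.2, 11.8, 19.2, 15.6 and 12.2 CPM with PM, against 20.7 to 45.6 CPM without (median 30.6), a log2 change of -1.21 ± 0.21 (edgeR adjusted p = 0.00549). It was the stable one of 3 falls among 13 Sprouty and ERK feedback genes. Wnt pathway genes were lower in 8 of 32 cases and higher in 0 (4 lower with the offset and 1 without no-PM replicates 5 and 6), with 4 stable, among them Wnt2, a mesenchymal ligand of lung growth (-0.44 ± 0.09), and Nkd1, a feedback inhibitor (-0.56 ± 0.11). Smo, the Hedgehog transducer, fell by 0.47 ± 0.07 (edgeR adjusted p = 0.00327), but stood at -0.18 with the offset and then did not pass. Among single genes, the potassium channel Kcnh1 had 3.8, 4.05, 2.7, 3.57 and 4.3 CPM with PM, against 4.61 to 9.17 CPM without (-1.05 ± 0.19, edgeR adjusted p = 0.00714). Aldh2, which clears aldehydes in mitochondria, stood at 576 to 664 CPM with PM and at 803 to 1068 CPM without (-0.61 ± 0.10, edgeR adjusted p = 0.00438). Arntl, the clock gene BMAL1, fell by 0.47 ± 0.10, 1 of 2 falls and 0 rises among 19 clock genes, beside 7.37% lower of all tested genes. Cox4i2, an isoform of a cytochrome oxidase subunit known from lung, stood at 38.9 to 41.2 CPM with PM and at 49.6 to 66.8 CPM without (-0.50 ± 0.08, edgeR adjusted p = 0.00501).

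Matrix and muscle genes were also lower, with less stability. Fibrillar and network collagens were lower in 9 of 26 tested cases and higher in 1, none of them stable, and with the offset 0 were lower and 1 higher. Elastic fibre and basement membrane genes were lower in 12 of 31 with 3 stable (6 lower and 1 higher with the offset). The 3 were Mfap2, a microfibril protein (39.5 to 50.9 CPM with PM, 55.8 to 66.7 CPM without, log2 change -0.49 ± 0.09), Loxl2, a collagen cross-linking oxidase (-0.57 ± 0.13), and Lamb2, a laminin chain (-0.62 ± 0.14), with edgeR adjusted p of 0.00709, 0.0193 and 0.0173. Without no-PM replicates 5 and 6, Loxl2 and Lamb2 stood at -0.37 and -0.44 and did not pass. Hspg2, perlecan, stood at 35.6 to 41.3 CPM with PM and at 42.8 to 149.8 CPM without (-1.19 ± 0.30, edgeR adjusted p = 0.025), and lost its call without no-PM replicate 6 (-1.0) or PM replicates 1, 2, 3 or 5 (-1.16, -1.17, -1.19 and -1.20). Adamts1, a protease of matrix proteoglycans, fell by 0.73 ± 0.15 (edgeR adjusted p = 0.0155), with overlapping groups. Smooth muscle markers were lower in 5 of 11, none stable, and their sums ran from 502 to 607 CPM with PM and from 445 to 1143 CPM without, lowest in no-PM replicates 3 and 4 (485 and 445 CPM). Myh11, smooth muscle myosin, had a log2 change of -0.95 ± 0.30 (edgeR adjusted p = 0.0493) and passed in 2 of the 11 repeats, those without no-PM replicate 3 or 4; without no-PM replicates 1, 2, 5 and 6 it stood at -0.93, -0.97, -0.81 and -0.79, and without PM replicates 1, 2, 3, 5 and 6 at -0.91, -0.94, -0.95, -1.02 and -0.92. Heart muscle markers, which mouse lung carries in its pulmonary veins, were lower in 2 of 14, and their sums ran from 143 to 249 CPM with PM and from 119 to 651 CPM without, highest in no-PM replicates 5 and 6 (651 and 631 CPM). Ciliated cell markers were called in 0 of 18 cases and fibroblast markers in 0 of 15. Cytosolic ribosomal proteins were called in 0 of 74 at a median log2 change of 0.20, but in 63 of them, all higher, without no-PM replicates 3 and 4, and in 6, all lower, with the offset. Genes called lower had a median transcript length of 4113 nt, those called higher 2296 nt and those not called 3036 nt.

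The last comparison asked whether PM did the same in the allergen arm, where mice were sensitised with ovalbumin (OVA) and 5 libraries with PM and 6 without were measured. In a fit of all 22 libraries, from which the values of the OVA arm come, the PM effect differed between the arms in 14 of 14942 tested genes (0.0937%) by edgeR's test, and in each the effect was larger in the saline arm. The other way 0 differed, and 571 had an unadjusted p under 0.05. All 14 were among the genes called in the saline arm. Cxcl3 had the smallest adjusted p: its log2 change with PM was 4.72 ± 0.30 in the saline arm and 0.77 ± 0.23 in the OVA arm, a difference of 3.94 ± 0.38 (SE, edgeR adjusted p = 3.26e-06). Saa3 differed by 5.10 ± 0.58 and Irg1 by 4.66 ± 0.53 (edgeR adjusted p = 2.6e-05 for both), since in the OVA arm they stood at 0.36 ± 0.38 and -0.08 ± 0.33. Orm2 differed by 5.93 ± 0.96 and Orm1 by 2.83 ± 0.52, Lcn2 by 2.14 ± 0.38, Serpina3n by 1.86 ± 0.36 and Steap4 by 1.17 ± 0.23. The chemokines Cxcl5 (3.45 ± 0.69), Ccl7 (2.77 ± 0.51), Cxcl1 (2.03 ± 0.35) and Cxcl13 (2.03 ± 0.34) and the cytokine Tnf (1.82 ± 0.36) were the others of inflammation. Rsad2 moved in opposite directions, with a log2 change of 0.91 ± 0.14 in the saline arm and of -0.83 ± 0.21 in the OVA arm. None of the vascular genes named above passed this test, which does not show that their effects were equal. Of the 1069 genes called lower in the saline arm, 1058 (99.0%) had a negative PM effect in the OVA arm, where 48.1% of all 14496 genes did, and of the 793 called higher 706 (89.0%) had a positive one, where 51.9% of all did. The contrasts of the arms share no library, but in both arms the PM libraries carry the other run of sample numbers. Plvap stood at -1.15 ± 0.21 in the OVA arm, Eng at -1.10 ± 0.23, Acvrl1 at -0.73 ± 0.16 and Nos2 at -1.22 ± 0.26 (edgeR adjusted p = 0.0085, 0.0111, 0.0137 and 0.0114), while Clec4e stood at 1.09 ± 0.21 (0.00865).

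**Figure D5:**
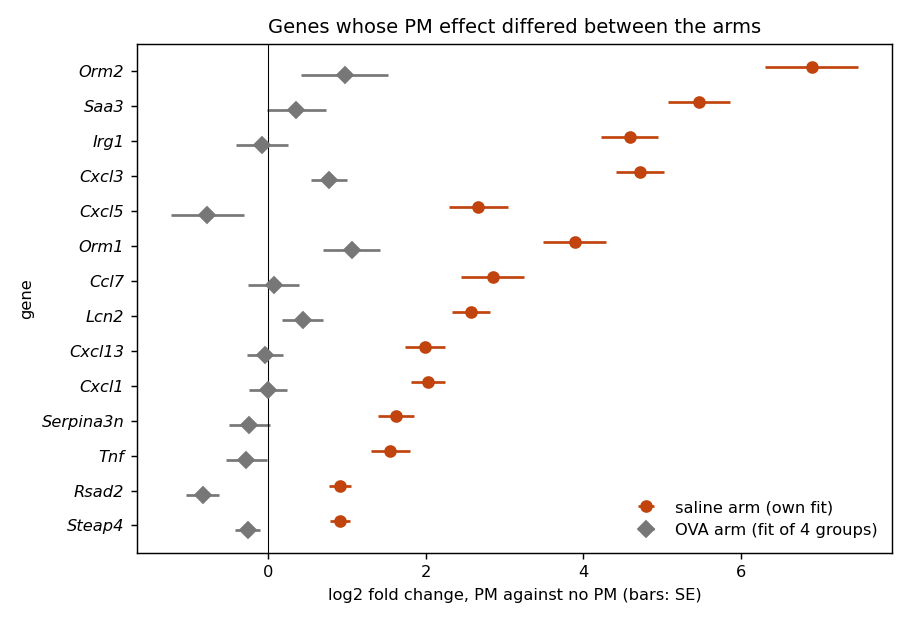
Log2 fold changes with PM in the saline arm (circles) and in the OVA arm (diamonds) for the 14 genes whose PM effect differed between arms, with bars of 1 standard error. In the saline arm all 14 lie right of 0, from 0.91 for Rsad2 and Steap4 to 6.90 for Orm2, and in the OVA arm they lie between -0.83 for Rsad2 and 1.06 for Orm1.

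In the authors' deposited table of this comparison, 2824 of the 14496 genes tested here had an adjusted p under 0.05. These held 1840 of the 1862 genes called here, in the same direction. The log2 changes in the authors' deposited table were smaller for the largest rises, such as 3.06 for Cxcl3 and 2.46 for Saa3, against 4.72 and 5.47 here. The gap was wide for Orm2 (2.5 there, 6.90 here) and Retnla (0.82 there, 3.04 here). Falls could be smaller there too, as for Nos2 (-0.89 there, -1.21 here).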

How the data were processed

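Gene expression was measured by RNA-seq of polyadenylated RNA in 11 libraries of the saline arm, with 11 of the OVA arm for 1 comparison. The authors deposited raw counts per gene in 3 tables, as the file headers name them. The tool bcl2fastq and the build mm10 are named in the submitters' processing notes, and for aligner, counter and use of strand nothing is given in the sources used here. Per the file headers, log2 fold changes with adjusted p-values of the authors' own test were also deposited, and served here to compare calls. Normalised values were not used here. Of 24421 rows 16 had names turned into dates (0.168% to 0.195% of a library's counts) and were left out, leaving 24405; 12 library columns held by 2 tables were identical. Of the names, 23361 matched GENCODE M21 directly and 644 through a unique RefSeq synonym. Counts of replicate pairs differed by more than sampling noise (chi-square per degree of freedom 2.63 to 54.7). Without PM, replicates 5 and 6 (3.49) and replicates 3 and 4 (4.02) were the closest pairs. Across these pairs the measure ran from 20.6 to 54.7. The libraries without PM thus fell into subsets, while the tests treat all 6 as independent.

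Genes were kept by edgeR's filter (minimum count 10, total 15), scaled by TMM and tested with the quasi-likelihood F test, Benjamini-Hochberg adjusted at 0.05 over all genes. Standard errors are the log2 fold change over the square root of F. Group SDs are of CPM. The difference between arms was an interaction term in a fit of 4 groups. Libraries were grouped by their labels, and the members, gene lists (48 of function, 24 of markers, 20 families by name) and tests were chosen with earlier results of these data known.

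Genes to name were drawn by a rule: the 15 largest changes each way among called genes with no overlap and at least 1 CPM, the 10 smallest p each way, up to 6 called and 2 uncalled members a list, 18 set genes, and 5 interaction genes each way. Only a part of the genes so drawn is described. Left out of the 15 largest falls are Dusp26, Nos1ap, Kcna2, Faim2, Pcdhga8, Bcan, Padi4, Ppp2r2c and Ntn1, and Col4a2 is shown only in the heat map. The falls described are thus not simply the largest. Alternatives were DESeq2, its size factors, library totals, no filter, 1 CPM in 5 libraries, limma voom with quality weights, all 4 groups in 1 fit, the replicate block, an offset (natural splines with 4 degrees of freedom on transcript length and GC, genes of at least 10 CPM) and leaving out each library. Leaving out no-PM replicates 3 and 4, or 5 and 6, was chosen after seeing the data. Results for some items are not reported here. Replicate numbers do not mark a shared animal or batch in the labels.

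On simulated counts for the PM comparison over 14496 genes, 50%, 88%, 98% and 98% of genes changed by log2 0.5, 1, 2 and 3 were recovered, with 7.22% false calls, above the nominal level. For the difference between arms over 14942 genes recovery was 8%, 64%, 86% and 98%, with 3.76% false. The simulated libraries were drawn independently, with no subsets and no trend on length or GC. These rates thus do not measure the errors among the calls on the real counts. Software was R 4.3.3, edgeR 4.0.16, limma 3.58.1, DESeq2 1.42.0, Python 3.11.15, pandas 2.3.3, numpy 2.4.6, scipy 1.17.1 and matplotlib 3.10.9.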

Additional observations from a re-analysis of the deposited data

Results flagged for a closer look

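In 17 of 228 pairs of named gene and group (7.46%) the highest or lowest library lay apart from the others by Dixon's criterion, where chance gives about 1 in 20. Most were libraries without PM, replicates 3 and 4. Without PM, replicate 3 was the highest for Lcn2 (392 CPM, next 265), Retnla (459, next 188), Chil3 (1081, next 477), Mmp19 (36.4, next 26.8), Reg3g (98.4, next 43.2) and Agr2 (11 CPM, next 4.13). Replicate 4 without PM was the highest for Ccl3 (3.62 CPM), Tnf (3.62 CPM), Clec4e (7.9 CPM) and Edem1 (90.9 CPM) and had 0 CPM of Ccl7, where the next lowest had 0.662. Replicate 5 without PM had 0.204 CPM of Orm2. With PM, replicate 1 was high for Csf2 (12.6 CPM), replicate 5 for Slc7a11 (12.4 CPM) and Prx (128 CPM), replicate 6 for Tie1 (159 CPM) and replicate 2 for Erg (50 CPM). The PM libraries apart in Tie1, Erg and Prx were the ones nearest to the group without PM.

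The log2 PM effect differed between the arms (saline minus OVA, interaction term in edgeR) by 5.93 in Orm2, 5.10 in Saa3, 4.66 in Irg1, 3.94 in Cxcl3, 3.45 in Cxcl5, 2.83 in Orm1, 2.77 in Ccl7, 2.14 in Lcn2, 2.03 in Cxcl1, 2.03 in Cxcl13, 1.86 in Serpina3n, 1.82 in Tnf, 1.73 in Rsad2 and 1.17 in Steap4. Depth differed between the arms as well: the OVA arm with PM held libraries of 0.302 M and 1.13 M counts, and without the libraries under 2 M counts 12 genes differed.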

How the results depend on the processing

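The number of genes called with PM kept within 1.5 times of 1862 under DESeq2 (2613), DESeq2 size factors, library totals, both filters, the fit of 4 groups and the offset (1358). The lower genes alone moved to 681 with the offset. Limma voom with sample quality weights called 4822 (2326 higher, 2496 lower). Leaving out no-PM replicates 3 and 4 gave 5838 (2840 higher, 2998 lower), and leaving out no-PM replicates 5 and 6 gave 253 (149 higher, 104 lower). Without each library in turn the count ran from 490 to 4112 (higher 247 to 1864, lower 243 to 2248): without no-PM replicates 1 to 6 it was 1275, 713, 4112, 2946, 579 and 586, and without PM replicates 1, 2, 3, 5 and 6 it was 568, 677, 744, 490 and 1171. With 5 against 5 or 4 against 6 libraries these repeats also hold fewer samples. The difference between arms held 14 genes, 24 with DESeq2 and 8 to 27 without each library in turn.

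With the replicate number as a block the calls numbered 3193 (1335 higher, 1858 lower) and the difference between arms 12 genes. In the PM comparison no-PM replicate 4 has no PM library of its number, so the block takes it out. Leaving out that library alone gave 2946 calls. Same-numbered libraries deviated from their group means with correlations of -0.0759, -0.177, 0.163, 0.171 and 0.0786 for numbers 1, 2, 3, 5 and 6, and 2 of the 5 PM libraries correlated best with their own number. These values were set against no reference, and whether the numbers pair the libraries was not tested.

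Of 114 named genes, 105 kept direction and call with the offset, 113 with DESeq2 and 99 without no-PM replicates 5 and 6. Calls lost in that last setting but not named above were Cxcl15 (0.32), Pf4 (0.57), Csf2 (0.63), Il1b (0.69), Muc5ac (2.07), Wnt2 (-0.38), Sftpb (-0.42) and Myh11 (-0.53). Limma voom with sample quality weights passed 6 named genes that had not passed, all higher: Nfkbia (0.22), Chil3 (1.36), S100a8 (0.59), Siglecf (0.51), Clca1 (3.19) and Scgb1a1 (0.36). Directions reversed with the offset in 4 genes that had not passed, Ppbp (-0.34), S100a8 (-0.15), Scgb1a1 (-0.09) and Sftpc (-0.01), and Sftpc also reversed without no-PM replicates 5 and 6 (-0.03); the cause was not tested. Depth limits low genes such as Il6, Il17a and Csf3, whose counts were too few to test.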
